A study of Mus musculus with 122 samples.

Results

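The comparison described here asked which genes changed by loss of CTCF returned toward their starting level when a CTCF transgene was switched on, and which did not. It set 3 libraries labelled ID against 3 libraries labelled I of the CTCF line, 6 of the 38 RNA libraries and of 122 samples in all, with the 5 untreated (U) and Dox-only (D) libraries of the same line as reference points. The cells were mouse embryonic stem cells of the E14Tg2a background, grown without feeders. In every group, U included, both copies of endogenous Ctcf carried an auxin-inducible degron and eGFP, Tir1 was expressed from Rosa26, and the Tigre locus carried a doxycycline-inducible, FLAG-tagged Ctcf transgene fused to mRuby2. I cells received 500 µM indole-3-acetic acid (IAA), which sends the degron-tagged protein to the proteasome. D cells received 1 µg/ml doxycycline (Dox), and ID cells received both agents. The sample labels give 24 h of treatment while the protocol text gives 2 days, so the exposure is not settled here. The line was a single homozygous clone, and the labels do not say that libraries came from separate cultures, so p-values measure only the spread between these libraries.

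CTCF is a zinc-finger protein that stops cohesin as it extrudes chromatin loops. It thereby sets the borders of many topological domains and insulates enhancers from promoters across them. It also binds close to a subset of promoters, and in embryonic stem cells it is needed for proliferation. Among its classic targets are the imprinting control region upstream of H19, where it keeps enhancers away from Igf2, and the clustered protocadherin promoters.

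Values are gene read counts divided by a library size factor, as deposited, and are called values below. Changes are log2 differences of value + 1. Genes counted as called had a change beyond 1 in size and, from limma with Benjamini-Hochberg adjustment, p under 0.01. Of 52459 genes in the table, 16705 with a mean value of at least 10 in the line were tested. The libraries held 16270957 to 28917040 reads assigned to genes. Replicate 1 of I stood apart from the other two: on the second principal component (18.5% of the variance) it lay at -54.0 against -29.0 and -28.4. Results are therefore also given without it. The sum over 10 markers of naive embryonic stem cells was 183518 to 198414 in U, 133396 to 152900 in I and 136845 to 140656 in ID. None of the 10 was called between ID and I. Changes of less than 1 in size lay under the similar sums. Nanog (-0.40), Klf4 (-0.54), Tfcp2l1 (-0.71) and Dppa3 (-0.92) were lower in ID at an adjusted p under 0.01 (limma). No marker of the 10 was higher at that p, the largest rise being that of Dppa5a (0.58). Over the marker lists of 7 other cell types, Otx2, Zscan4c and Zscan4d were called, all lower in ID, and no marker was at 0 throughout.

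Ctcf itself did not rise in the libraries labelled ID. Its values were 4712 and 4691 in U, 4622, 4371 and 4231 in I, 3845, 3850 and 3550 in D, and 3910, 4137 and 4142 in ID. Each ID library was below each I library, and the difference of -0.12 (SE 0.06) did not pass the test (limma, adjusted p = 0.15). A Dox-induced Ctcf transcript was thus not visible as a higher gene count. In another line of the series, CLC, Ctcf stood at 8319 and 8460 in U, 5586 and 7314 in I, and 10258 and 11401 in ID. The LCL line showed no such rise, with 7829 and 9309 in U, 7792 and 7942 in I, and 6964 and 7194 in ID. The LCL transgene holds the Ctcf zinc fingers between Ctcfl ends, and mean Ctcfl there rose from 28.6 in I to 1172 in ID. For the CTCF line, the paper shows transgenic protein in D and ID cells by FLAG western blot, which is not a measurement of these RNA libraries. FLAG ChIP-seq libraries of the CTCF line labelled ID, made separately from the RNA, gave 41360 and 32068 peaks. The RNA groups keep the names of their labels below, and each direction drawn from ID or D rests on those labels.

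Between ID and I, 294 genes were higher, 1.76% of those tested, and 551 were lower, 3.3%, or 5.06% in either direction. For each of these 845 genes the 3 ID libraries lay entirely on one side of the 3 I libraries. The calls were made on these same libraries, so this separation is largely built in. Without replicate 1 of I the counts were 254 and 452. In ID versus U, which called 5.59% of all genes as higher and 9.26% as lower, 204 of the 294 higher genes were not called, 72 were higher and 18 lower. Of the 551 lower genes, 347 were called lower in ID than in U, 10 higher and 194 not at all. Dox alone changed far fewer genes, 36 higher (0.216%) and 40 lower (0.239%) in D versus U. Of the ID versus I genes, 10 of the 294 higher and 10 of the 551 lower were called in the same direction by Dox alone. Both shares are small but above the 0.216% and 0.239% of all genes. The test of the difference itself, ID versus I against D versus U, called 163 genes (0.976%) as higher and 294 (1.76%) as lower.

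IAA alone lowered 989 genes (5.92%) and raised 835 (5.0%) in I versus U. Each was sorted by what it did in ID. A gene moved back where ID versus I was called in the opposite direction, and stayed changed where ID versus I was not called and ID versus U still was. It went further where ID versus I was called in the same direction, and was undecided otherwise. I versus U and ID versus I share the I libraries, so an I value that is low by chance favours a move back, and the counts are descriptions. Of the 989 lowered genes, 131 moved back (13.2%), 113 of them to a level no longer called below U. Another 566 stayed lowered (57.2%), 152 fell further (15.4%) and 140 were undecided. Of the 835 raised genes, 109 moved back (13.1%), 426 stayed raised (51%), 3 rose further and 297 were undecided. Without replicate 1 of I, 138 lowered and 93 raised genes moved back, and 625 and 487 stayed changed. Among those that moved back, the median share of the log2 change undone was 83.7% for lowered genes (quartiles 69.0 and 98.5%) and 75.9% for raised genes (quartiles 65.6 and 96.9%). Membership needed an ID versus I change beyond 1 from the same I libraries. Small shares were thus mostly excluded in advance, and these values do not measure how complete the return was.

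A list chosen on the libraries of another line was read in the same way. The CTCFL line carries a CTCFL transgene in place of CTCF, and its own I versus U comparison lowered 991 genes (5.88%) and raised 622 (3.69%). In the CTCF line, 966 of these were tested, with a median change of -1.42 in I versus U, of -0.62 in ID versus I and of -1.95 in ID versus U. The ID versus I median was smaller in size, -0.34 and -0.35, for the genes lowered in the LCL and CLC lines. Of the 966, 82 rose between I and ID (8.49%, against 1.76% of all genes) and 232 fell (24.0%, against 3.3%). These backgrounds are not matched for gene length. On this list 437 genes spanned over 200 kb of the genome, and 28% of all genes tested of that span fell between I and ID. The 601 tested genes raised in the CTCFL line had a median of -0.10 in ID versus I, with 52 lower (8.65%) and 5 higher. Over all genes tested the median was -0.02.

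**Figure D1:**
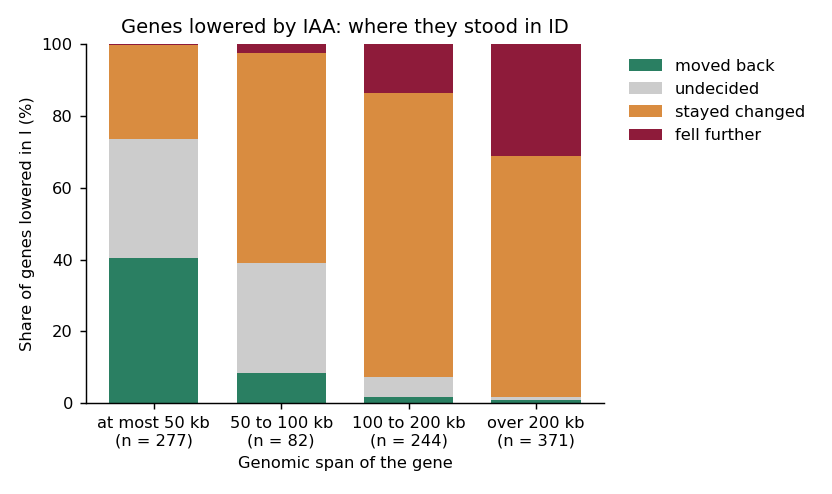
Share of the genes lowered in I versus U that moved back, stayed changed, went further or were undecided in ID, in percent on the y axis, by the genomic span of the gene in kb on the x axis, as stacked bars with the number of genes under each. The share of lowered genes that moved back falls from 40.4% at spans of at most 50 kb to 0.809% above 200 kb, where 31.3% fell further. Of all genes tested above 200 kb, 28% were called lower in ID versus I.

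The lowered genes that moved back were short. Span, the distance from the first to the last annotated base, was taken from GENCODE vM21 for 16306 of the 16705 genes and had a median of 19.8 kb. It was 12.7 kb in the lowered genes that moved back, 178 kb in those that stayed lowered and 277 kb in those that fell further. Of 277 lowered genes of at most 50 kb, 112 moved back (40.4%) and 72 stayed lowered. Of 371 lowered genes over 200 kb, 3 moved back (0.809%), 249 stayed (67.1%) and 116 fell further (31.3%). Among all 675 tested genes over 200 kb, lowered in I or not, 28% were called lower in ID versus I and 3 were called higher. The share that fell further was thus close to the share that fell among all genes of that span. The raised genes were short in both classes, at 12.1 kb where they moved back and 9.53 kb where they stayed raised. On the list from the CTCFL line, 66 of 143 lowered genes of at most 50 kb rose between I and ID (46.2%) and 2 fell, while 2 of 437 over 200 kb rose (0.458%) and 153 fell (35%).

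Several of the genes that moved back did so almost completely. Hddc3, a small HD-domain hydrolase, had values of 171 and 161 in U, 20.3, 29.5 and 17.6 in I, and 142, 167 and 144 in ID, a rise of 2.72 (SE 0.18; limma, adjusted p = 2.76e-07). Krtcap2, a subunit of the oligosaccharyltransferase that attaches glycans to new proteins, had 1491 and 1118 in U, 227, 378 and 340.3 in I, and 1342, 1638 and 1592 in ID, a rise of 2.30 (SE 0.16; limma, adjusted p = 4.8e-07). Nudt17, a Nudix hydrolase, went from 89.3 and 124 in U to 15.5, 10.2 and 25.2 in I and to 66.3, 83.3 and 86.3 in ID, a rise of 2.23 (SE 0.27; limma, adjusted p = 2.87e-05). In all 3 genes, picked among those with separate libraries, every ID library stood far above every I library, and ID versus U was not called. With Dox alone Hddc3 was at 219 to 243 and Krtcap2 at 1710.4 to 2004, above both U libraries, though D versus U was called for neither.

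Others had been almost silenced and came back partway. Nkd2, an antagonist of Wnt signalling that binds Dishevelled, was at 50.0 and 97.2 in U, 1.94, 4.54 and 0 in I, and 30.1, 35.2 and 34.8 in ID. Prss41, a serine protease of the testis, was at 111 and 118 in U, 2.90, 3.41 and 0 in I, and 32.6, 23.5 and 19.7 in ID. One I library of each was at 0, so the size of their rises of 3.76 (SE 0.49) and 3.32 (SE 0.45) depends on the value added before taking logs. Nkd2 in ID was not called against U, while Prss41 was still lower, at -2.17. Mob3b, of the MOB family of kinase activators, had 420.1 and 369 in U, 11.6, 18.2 and 15.9 in I, and 79.6, 65.7 and 101 in ID, and at 208 kb it is one of the 3 lowered genes over 200 kb that moved back. Its rise was 2.36 (SE 0.19; limma, adjusted p = 1.22e-06), against -4.62 in I versus U.

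Ppa2, the mitochondrial inorganic pyrophosphatase, had values of 1090.0 and 793 in U, 61.9, 77.2 and 66.2 in I, and 174, 224 and 210.4 in ID. Dennd6b, a DENN-domain exchange factor for Rab GTPases, had 263 and 283 in U, 20.3, 20.4 and 18.4 in I, and 100.1, 64.5 and 92.3 in ID. Both were still called below U, at -2.20 and -1.68, after rises of 1.55 (SE 0.14) and 2.04 (SE 0.17). Itga8, integrin alpha 8, rose from 4.84, 4.54 and 4.19 in I to 14.5, 15.3 and 16.7 in ID, with U at 73.4 and 57.5. Cc2d2a, a protein of the ciliary transition zone, rose only from 9.68, 6.82 and 5.03 to 30.1, 19.95 and 13.6, with U at 363 and 389. The rise of Cc2d2a was 1.41 (SE 0.28), and it was no longer called in a fit with the I and ID libraries alone or with all 4 lines (adjusted p = 0.0241 and 0.0166 by limma). Pcdhga11, the one clustered protocadherin called of 9 tested (background 1.76%), went from 2.90, 2.27 and 1.68 in I to 10.8, 22.3 and 24.2 in ID, with U at 39.4 and 72.9. Its neighbours in the cluster share 3′ exons, so reads assigned to it are uncertain.

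**Figure D2:**
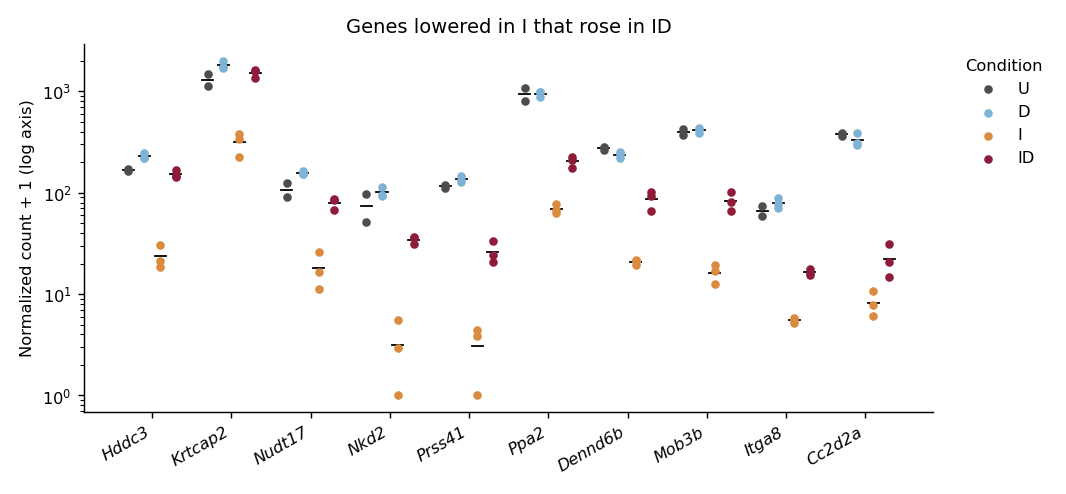
Values of 10 genes that were lowered in I versus U and moved back in ID, 1 point per library and a black bar for the mean of each group (U 2 libraries; I, D and ID 3 each), on a log axis of value + 1. Hddc3, Krtcap2 and Nudt17 return close to U, while Cc2d2a and Mob3b remain well below it.

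Sites of the transgenic protein were frequent at the promoters of these genes. Binding was read from FLAG ChIP-seq of the CTCF line labelled ID, in which 30317 sites had overlapping peaks in both replicates. A site of CTCF ID lay within 3 kb of an annotated start site in 77 of the 126 lowered genes that moved back and had an annotation, 61.1% (Wilson 95% interval 52.4 to 69.2). The share was 30.6% over all genes tested, 37.8% in the genes that stayed lowered (33.9 to 41.9) and 30.3% in those that fell further (23.5 to 38%). Nearly all of the sites in the genes that moved back were close: within 1 kb the share was 59.5%, while it was 16.8% over all genes, 23.2% in the genes that stayed lowered and 11.2% in those that fell further. Among lowered genes of at most 50 kb the shares within 3 kb were 58% where they moved back (48.8 to 66.8) and 43.7% where they stayed lowered (32.7 to 55.2), with overlapping intervals. Within 1 kb they were 56.2% where they moved back (47.0 to 65.1) and 21.1% where they stayed lowered (13.2 to 32%). For raised genes the shares within 3 kb were 24.5% where they moved back and 30.3% where they stayed raised. On the list from the CTCFL line, 61 of 80 lowered genes that rose in ID had a site within 3 kb (76.2%), against 36.1% of the 880 that did not. These intervals cover counting error over genes, which are not independent replicates.

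**Figure D3:**
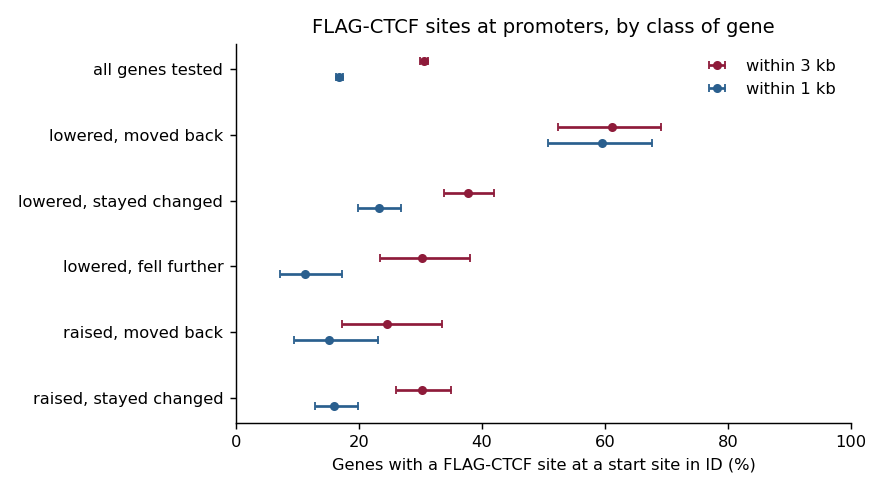
Percent of genes with a FLAG site of CTCF ID within 3 kb and within 1 kb of an annotated start site, for classes of genes by what they did in I and in ID; bars are 95% Wilson intervals. Lowered genes that moved back stand at 61.1% and 59.5%, above the 30.6% and 16.8% of all genes tested.

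The 8 lowered genes that moved back after the largest losses all had such a site, from 32 to 153 bases upstream of a start site. The core of the CTCF motif, 14 bases long, was searched on both strands within 50 bases of each summit, with up to 2 mismatches allowed. It was found at 52.2% of the 30317 sites, and at 44 of 126 promoter windows of 300 bases of the lowered genes that moved back (34.9%). The same windows held it in 10.1% of all genes tested, in 13.7% of the genes that stayed lowered and in 7.89% of those that fell further. The 6 sequences below are from promoters described above, in GRCm38 read on the strand of the motif, and show the best core match within 50 bases of the summit, in capitals, with 8 bases on either side; Cdk14 is added as a gene with a like site that stayed lowered.
Nudt17, chr3:96708556-96708585, minus strand, upstream of the gene: gagctgggCCACCAGGGGGCGCcaggcaag
Krtcap2, chr3:89246359-89246388, plus strand, in an annotated exon: cctccttgCCACAAGAGGGCGCtgcaccca
Itga8, chr2:12302001-12302030, minus strand, upstream of the gene: agaactagCCGCTAGAGGGCGCgaagagcg
Mob3b, chr4:35157491-35157520, minus strand, upstream of the gene: agagaaggCCACCAGGGGACTCcgctctga
Ppa2, chr3:133310060-133310089, plus strand, upstream of the gene: ggctccggGCGGCAGGGGGCGCcgtcgagc
Dennd6b, chr15:89196635-89196664, plus strand, upstream of the gene: cgggtcggCCAGTAGGTGGCTAgtgtggcc
Cdk14, chr5:5266668-5266697, minus strand, in an intron: gcctctctCCTGTAGGGGGCGCtaagagag
The Nudt17 core matched at 14 of 14 positions, those of Krtcap2, Itga8 and Cdk14 at 13, and those of Mob3b, Ppa2 and Dennd6b at 12. Hddc3, Nkd2, Prss41 and Cc2d2a had a site at the promoter without such a match in this window. A match is a description of the letters only.

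The genes that stayed lowered included long genes of the nervous system that were near 0 in both I and ID. Kcnt2, a sodium-activated potassium channel of 366 kb, had values of 148 and 256 in U, 4.84, 5.68 and 2.51 in I, and 2.41, 10.6 and 4.54 in ID. Elavl4, a neuronal RNA-binding protein of 148 kb, had 58.5 and 63.0 in U, 0.97, 1.14 and 0.84 in I, and 2.41, 0 and 1.51 in ID. Cdk14, a cyclin-dependent kinase of 617 kb, had 34 and 58.5 in U, 0, 0 and 2.51 in I, and 0, 1.17 and 1.51 in ID. The I and ID libraries overlapped in each of these genes, and changes between them were 0.22 (SE 0.42), 0.05 (SE 0.49) and 0.21 (SE 0.60). Scn3a, a voltage-gated sodium channel, had 1.94, 5.68 and 6.71 in I and 12.1, 9.39 and 6.05 in ID, with U at 134 and 172, and its change of 0.89 (SE 0.37) did not pass the test. Promoter sites of CTCF ID were present at Elavl4, Cdk14 and Scn3a and not at Kcnt2, so a site did not separate these genes from those that moved back.

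The genes that fell between I and ID were long. Their median span was 137 kb, with 61.4% over 100 kb, against 8.15 kb and 2.46% for the genes that rose and 11.6% over 100 kb among all genes tested. By span, the share called lower was 1.02% at 20 to 50 kb, 2.95% at 50 to 100 kb, 11.8% at 100 to 200 kb and 28% over 200 kb. The difference was also seen among genes with mature transcripts of like length: of those with 2 to 4 kb of exons, 1.17% were lower where the span was at most 50 kb and 14.6% (21 of 144) where it exceeded 200 kb. With 6 to 8 kb of exons the shares were 1.28% and 32.9%.

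The shift was seen in every library. Over the 675 genes of more than 200 kb, the median log2 change from the mean of U was -0.16, -0.07 and -0.20 in D, -1.14, -1.31 and -1.28 in I, and -2.04 in each of the 3 ID libraries. Over the 5184 genes of at most 10 kb, it was 0.17, 0.11 and 0.22 in D, 0.09, 0.27 and 0.25 in I, and 0.39, 0.39 and 0.38 in ID. ID libraries thus stood farther from U than I libraries in both span classes. D libraries stood nearer to U than I over 200 kb, and overlapped I at spans of at most 10 kb. RNA quality was not given for these libraries, and its part in this pattern was not tested.

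**Figure D4:**
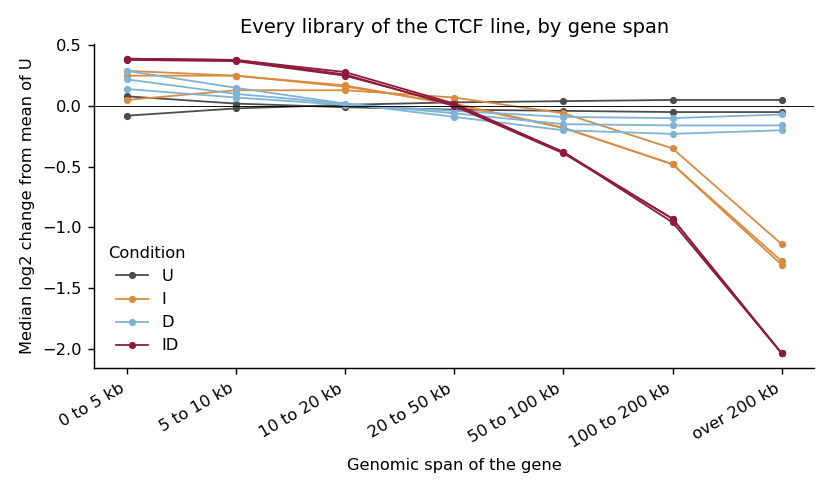
Median log2 change from the mean of the U libraries, by gene span in kb, with 1 line per library of the CTCF line. The ID lines end at -2.04 above 200 kb, below the I lines at -1.14 to -1.31 and the D lines at -0.07 to -0.20.

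Several long genes fell between I and ID, and of those named here Dpf3 alone had been called in I versus U, where it was raised. Vav3, a guanine nucleotide exchange factor of 345 kb, had values of 59.6 and 97.2 in U, 77.4, 69.3 and 68.7 in I, 58.9, 39.3 and 65.2 in D, and 2.41, 7.04 and 6.05 in ID, a change of -3.65 (SE 0.34; limma, adjusted p = 3.5e-06). Gab2, an adaptor downstream of receptor tyrosine kinases, had 137, 166 and 138 in I and 18.1, 48.1 and 31.8 in ID, a change of -2.23 (SE 0.27; limma, adjusted p = 3.03e-05). Stag1, a subunit of cohesin of 362 kb, had 4081, 3735 and 3424 in I and 1764, 1782 and 1816 in ID, a change of -1.06 (SE 0.08; limma, adjusted p = 8.9e-07). In these 3 genes the I libraries lay within or close to the range of U and D, and the ID libraries lay below all others. Ddr2, a collagen-binding receptor tyrosine kinase of 138 kb, was at 276.5 and 351 in U, 638, 477 and 479.5 in I, and 117, 101 and 83.2 in ID. Dpf3, a subunit of the BAF chromatin remodeller of 274 kb, was at 34 and 37.6 in U, 103, 103 and 85.5 in I, and 8.44, 11.7 and 10.6 in ID. Both crossed the untreated level, since ID versus U was called lower for Ddr2 (by -1.64) and for Dpf3 (by -1.72).

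Of the raised genes that moved back, Dppa1 (developmental pluripotency associated 1) was among those with the largest changes. Its values were 5.32 and 7.73 in U, 96.8, 107 and 119.9 in I, and 7.23, 5.87 and 12.1 in ID, a change of -3.58 (SE 0.37; limma, adjusted p = 8.2e-06). Atoh1, a proneural transcription factor, was at 24.5 and 19.9 in U, 226, 265 and 269 in I, and 51.8, 45.8 and 54.5 in ID, a change of -2.30 (SE 0.20; limma, adjusted p = 2.67e-06). ID libraries of both genes lay apart from I, and those of Atoh1 were still called above U, by 1.16. Dio3, an imprinted deiodinase that inactivates thyroid hormone, moved from 835, 814.5 and 805.5 in I to 359, 338 and 334 in ID, with U at 84.0 and 71.8. Bex6, of the brain-expressed X-linked family, had 58.1, 54.5 and 80.5 in I and 18.1, 21.1 and 10.6 in ID, and was not called in a fit with all 4 lines (limma, adjusted p = 0.0166). Oas1e and Oasl2, of the oligoadenylate synthetase family of antiviral genes, changed by -2.07 (SE 0.41) and -3.45 (SE 0.72). Oasl2 rested on 10.8, 1.17 and 3.03 in ID and was no longer called without replicate 2 of ID (-2.90; limma, adjusted p = 0.0112). Htr5a, a serotonin receptor, fell by 1.52 (SE 0.33), and it lost the call without replicate 2 of I (-1.41; limma, adjusted p = 0.0147) or replicate 1 of ID (-1.22; limma, adjusted p = 0.0149). Epn3, an epsin of clathrin-coated pits, fell by 1.15 (SE 0.31; limma, adjusted p = 0.0095) and lost the call without any single library of U, I or ID. Dio3, Htr5a, Bex6, Epn3 and Atoh1 had no CTCF ID site within 3 kb, while Dppa1, Oasl2 and Oas1e had one.

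Among genes that stayed raised, Trim54, a RING-finger protein of striated muscle, was at 31.9 and 38.7 in U, 227, 223 and 212 in I, and 242, 262 and 239 in ID. Ocel1, an occludin/ELL-domain gene with a CTCF ID site 430 bases downstream of its start, was at 103 and 78.4 in U, 380.4, 866 and 863 in I, and 535, 594 and 628 in ID. Neither was called between ID and I, at 0.17 (SE 0.14) and -0.17 (SE 0.26). Of 27 Hox genes tested, which pattern the body axis, 7 were raised in I versus U (background 5.0%) and 9 in ID versus U (background 5.59%), none was lowered, and the one called between ID and I was Hoxd13 (background 1.76%). It rose from 76.5, 84.1 and 83.0 in I to 184.5, 210.0 and 213 in ID, with U at 107 and 66.3.

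Igf2, the imprinted growth factor, is a direct neighbour of a CTCF-bound insulator. Its values were 2438.5 and 2591 in U, 5635, 5019 and 5265 in I, 1809, 1902 and 1882 in D, and 2064, 2181 and 2273 in ID, a change of -1.29 between I and ID (SE 0.07; limma, adjusted p = 5e-08). I libraries were above all others and the ID libraries were just below U, by -0.21, with no call. Igf2os, an antisense transcript of the same locus, fell by 2.65 (SE 0.22), but the strand setting of the counting is not given in the sources used here, and reads of the overlapping pair cannot be told apart. Peg10, a paternally expressed gene derived from a retrotransposon, had 6901, 5445 and 5541 in I and 2039, 2086 and 2184 in ID, a change of -1.50 (SE 0.10). Dlk1, a Notch-like membrane protein, rose by 1.05 (SE 0.14) and Nap1l5 by 1.12 (SE 0.22). Dlk1 was no longer called without replicate 3 of I (0.98) and Nap1l5 without replicate 1 of I (0.94), since both then fell under the fold threshold. Of 32 imprinted genes tested, 2 rose and 2 fell, against 1.76% and 3.3% of all genes.

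The integrated stress response, which the transcription factor Atf4 drives when amino acids run short or proteins misfold, was lowered in I and stood near the untreated level in ID by its median. Of its 30 listed genes, 14 were lowered in I versus U (background 5.92%) and none was raised. Between I and ID 7 rose (background 1.76%) and none fell, with a median change of 0.84, against -0.94 for I versus U and -0.12 for ID versus U. Without replicate 1 of I, 5 rose. In ID versus U, 4 of the 30 were called lower (background 9.26%) and 1 higher (background 5.59%). Trib3, a pseudokinase that restrains the response, had values of 3262 and 3246 in U, 1027, 1287 and 1281 in I, and 3090, 3123 and 3046 in ID. Nupr1, a small stress-induced chromatin protein, had 3484 and 2714 in U, 805, 1363 and 1269 in I, and 4266, 4863 and 4746 in ID. Slc7a3, a cationic amino acid transporter, had 401, 361 and 376 in I and 986, 902 and 906.5 in ID, with U at 1294 and 1398.

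These 3 genes had a gap between I and ID wider than the spread within either group, with rises of 1.37 (SE 0.08), 2.05 (SE 0.16) and 1.29 (SE 0.08). Mthfd2, a mitochondrial folate enzyme, rose by 1.12 (SE 0.07) and stood at 3165 to 3602 in ID, below 4777 and 4525 in U. Ddit3, the pro-apoptotic factor CHOP, was not lowered in I (525, 579 and 665.5, against 738 and 573 in U) and rose to 1696, 1712 and 1831 in ID. Dox alone gave 1169, 1124 and 1364 for Ddit3, above U and I and below ID. Atf5, a transcription factor of the response, rose by 1.01 (SE 0.09) and lost the call without replicate 1 of I (0.98) or replicate 3 of ID (0.96). Fgf21, a secreted factor of the response, rose by 1.18 (SE 0.28) and lost it without replicate 1 of I (0.90), replicate 2 of ID (1.05) or replicate 3 of ID (1.20). The synthetase Aars and the serine synthesis enzyme Psat1 had differences of 0.84 (SE 0.07) and 0.85 (SE 0.06), under the fold threshold, with all ID libraries above all I libraries. Mitochondrially encoded transcripts had a median change of 0.40, and none of 11 was called.

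Genes of the two-cell embryo, which mark a rare state of embryonic stem cells, moved in the opposite direction. Of 15 tested, 13 were raised in I versus U (background 5.0%), and 10 fell between I and ID (background 3.3%) with none rising. Medians over the 15 were 2.13 in I versus U, -1.28 in ID versus I and 0.72 in ID versus U. Leaving out 1 library at a time gave 8 to 11 lower genes, and 9 without replicate 1 of I. Zscan4c, of a telomere-associated family active in that state, was at 53.2 and 87.3 in U, 256, 206 and 198 in I, and 82.0, 71.6 and 57.5 in ID. Usp17la, a deubiquitinase, was at 134 and 203 in U, 852, 751 and 769.5 in I, and 247, 290 and 254 in ID. ID libraries of Zscan4c overlapped U, and those of Usp17la lay above it. All 10 genes belong to the Zscan4 and Usp17l families, whose near-identical copies share reads, so that the values of single members are uncertain. In a fit with all 4 lines Zscan4a, Zscan4d, Zscan4e, Zscan4f and Usp17ld were no longer called. Zscan4a also lost the call without replicate 2 of I or of ID, and Usp17ld without replicate 1 of I or replicate 2 or 3 of ID. Fewer cells in that state and less of its RNA per cell cannot be told apart in bulk samples.

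**Figure D5:**
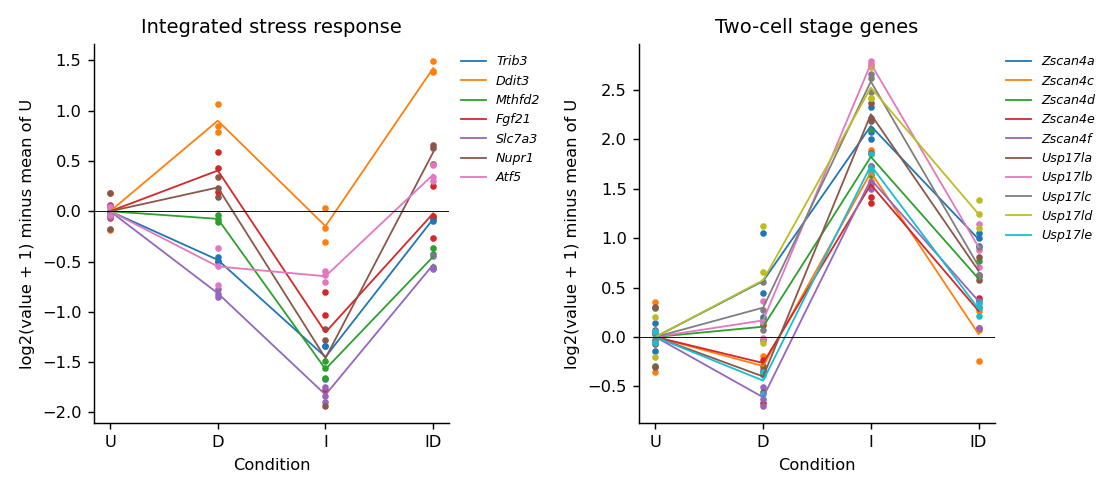
Called genes of the integrated stress response (left) and of the two-cell stage (right) in the U, D, I and ID libraries, as log2(value + 1) minus the mean of U on the y axis, with 1 point per library and lines joining the group means. Trib3, Nupr1 and Slc7a3 drop in I and rise in ID, and Zscan4c and Usp17la do the reverse.

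Other lists held few calls. Of 24 naive pluripotency genes, 7 were lowered in I versus U (background 5.92%) and 8 in ID versus U (background 9.26%), none rose between I and ID, and Dppa2 and Tet2 fell (background 3.3%). Dppa2, which helps activate two-cell genes, went from 1585, 1432 and 1482 in I to 409, 470.5 and 448 in ID, with U at 794 and 806.5. Tet2, a dioxygenase of DNA demethylation, was at 3062, 1976 and 1931 in I and at 1096, 1070.0 and 1091 in ID, and was under the fold threshold without replicate 1 of I (-0.85). Otx2, a regulator of the primed epiblast, fell in both steps, from 511.5 and 581 in U to 271, 282 and 260 in I and to 117, 104 and 113.5 in ID. Of 19 genes of cohesin and CTCF partners, none rose and 2 fell (background 3.3%), Stag1 and Nfix. Nfix, a nuclear factor I gene, lost the call without replicate 2 of ID (-0.97). Tcf7l2, a transcription factor of Wnt signalling spanning 192 kb, fell from 324, 266 and 324 to 125, 127 and 129. Smc1b, the meiotic cohesin subunit, rose from 381, 399 and 351 in I to 878, 844 and 993 in ID, with U at 1699 and 1765. Fosb, of the AP-1 family, rose by 1.66 (SE 0.25) but was not called in a fit with all 4 lines (limma, adjusted p = 0.0131). Mxd4, a Myc antagonist, changed by -1.01 (SE 0.18) and was under the fold threshold without replicate 3 of I (-0.93) or of ID (-0.89). In 13 of the 26 lists, with 223 tested genes, none was called between ID and I. These lists include cell cycle, p53 targets, glycolysis, cholesterol synthesis, heat shock chaperones, Notch and Nodal signalling, and their medians ran from -0.36 to 0.40. A list without such calls could still differ from U. Of 19 glycolysis and hypoxia genes, 2 were lower in I versus U (background 5.92%) and 8 in ID versus U (background 9.26%), and none was higher in either.

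Some genes were higher in ID without having been called in I versus U. Mtnr1a, a melatonin receptor, had values of 8.51 and 9.94 in U, 8.71, 7.95 and 7.54 in I, and 60.3, 49.3 and 71.1 in ID, a rise of 2.74 (SE 0.45; limma, adjusted p = 0.000341). Enpep, aminopeptidase A, had 20.2 and 21.0 in U, 7.74, 2.27 and 10.9 in I, and 50.6, 57.5 and 62.1 in ID, a rise of 3.04 (SE 0.43; limma, adjusted p = 0.000113). ID stood above U, I and D in both. Il9r, the interleukin 9 receptor, rose by 2.35 (SE 0.31), but D already stood at 34.7, 46.7 and 43.5, against 5.32 and 8.84 in U. Unlike these, Fgf17, a fibroblast growth factor, was lowered in I (47.4, 22.7 and 41.1, against 313 and 326 in U). It rose to 142, 189 and 176 in ID, had 661 to 689.5 in D, and had no CTCF ID site within 3 kb. Hsd11b2, an enzyme that inactivates glucocorticoids, was lower in D (9.47, 13.8 and 13) than in U (31.9 and 30.9) and higher in ID (78.4, 90.3 and 75.7) than in I (29, 30.7 and 31). Dox thus changed Hsd11b2 in opposite directions with and without IAA, a difference of 2.72 (SE 0.35; limma, adjusted p = 0.000237). Rapgef4, an exchange factor for Rap GTPases, was higher with Dox alone and was not called between ID and I, at 172, 173 and 156 in D against 13.8 and 16.6 in U, and at 21.7, 17.6 and 19.7 in ID against 18.4, 17.0 and 10.1 in I.

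Other lines of the series received the same agents but carried CTCFL or, in LCL and CLC, a chimera of CTCF and CTCFL. Of the 294 genes higher in ID than in I, 288 were tested in the CTCFL line and 123 were called higher there too (42.7% of these, and 20.4% of the 604 called higher there that were also tested in the CTCF line; background 3.94%). In the LCL line 87 of 253 were (34.4%; background 4.04%), and in the CLC line 25 of 245 (10.2%; background 1.15%). Of the 551 lower genes, 168 of 533 were called lower in the CTCFL line (31.5%; background 3.89%), 22 of 481 in the LCL line (4.57%, near its background of 4.45%) and 2 of 490 in the CLC line (0.408%; background 0.795%). The opposite direction was called for 10 of these 533, 43 of these 481 and 48 of these 490 (backgrounds 3.94%, 4.04% and 1.15%). For the higher genes it was called for 1 of 288, 19 of 253 and 6 of 245 (backgrounds 3.89%, 4.45% and 0.795%). In one fit over all lines, the ID versus I change differed from that of the CTCFL line in 170 genes as higher (1.03%) and 338 as lower (2.05%). From the LCL line it differed in 4.94% and 5.55% of genes, and from the CLC line in 4.24% and 6.66%.

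Long genes were also compared between lines. Of genes over 200 kb, 189 of 675 fell in the CTCF line and 3 rose, against 103 and 35 of 665 in the CTCFL line, 18 and 64 of 586 in the LCL line, and 0 and 70 of 601 in the CLC line. Of the 657 such genes tested in all lines, the change in the CTCF line was called lower than in the CTCFL line for 64 and higher for 8, lower than in the LCL line for 225 and higher for 5, and lower than in the CLC line for 331 and higher for 4. The lines differ in clone as well as in transgene, and these cannot be told apart. Names of the LCL and CLC libraries also share a tag that those of the CTCF and CTCFL lines lack. Mean Ctcf in U was 8569 in the LCL line and 8389 in the CLC line, against 4701 in the CTCF line and 5064 in the CTCFL line. A difference in culture or library set between these pairs of lines was not tested.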

How the data were processed

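RNA was poly(A)-selected, with dUTP directional libraries. The authors aligned reads with STAR to GRCm38 (mm10); their processing notes also name Trim Galore 0.4.4, SAMtools 1.3 and HTSeq. The deposited signal values are gene counts divided by size factors. Whole reads (tolerance 0.1) could be recovered for all libraries of the CTCF line. ChIP-seq peaks were deposited per replicate with MACS −log10 q-values; sites overlap by at least 1 base. From these values, limma 3.58.1 in R 4.3.3 (log2 of value + 1, intensity trend) was fitted over U, I, D and ID of the line; a second fit took in 4 lines. Calls needed an adjusted p (Benjamini-Hochberg) under 0.01 and a log2 change over 1. The script was tested on simulated data. edgeR 4.0.16 and DESeq2 1.42.0 on recovered reads, other filters, scalings, thresholds and leaving out each library were alternatives. Depth was 16270957 to 28917040 reads per library. Motifs were read from GRCm38. Named genes are the 8 with the largest ID versus I change each way, the 8 with the largest I versus U change per class, list members called, and the top interaction terms. The picks for ID versus I and for I versus U needed a minimum mean value. Those for ID versus I also needed all ID libraries on one side of all I libraries. Members and lists were chosen with earlier results of these data known.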

Additional observations from a re-analysis of the deposited data

Results flagged for a closer look

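The results below differed between groups by a test of the difference itself (limma, adjusted p under 0.01 and beyond 1 on the log2 scale). Against the CTCFL line, the ID versus I change of the CTCF line was higher in 170 genes and lower in 338. Against the LCL line it was higher in 814 and lower in 915, and against the CLC line higher in 699 and lower in 1098. Among the named genes, the change was higher than in the CTCFL line for Fosb (3.57), Igf1 (3.37), Fgf17 (1.90), Nupr1 (1.29), Slc7a3 (1.14), Atf5 (1.11) and Trib3 (1.00). It was lower for Ablim3 (-5.88), B3gat2 (-5.71), Vav3 (-4.16), Ube2cbp (-3.21), Dpf3 (-2.31), Nudt17 (-2.20), Igf2 (-1.72), Ocel1 (-1.38), Peg10 (-1.36), Ppa2 (-1.23), Mxd4 (-1.23) and Ddr2 (-1.08). Trib3, Nupr1, Slc7a3 and Atf5 of the stress response thus rose more in the CTCF line, and Nudt17 and Ppa2 rose less. A difference between lines need not be a change in the CTCF line. There Ablim3 (0.02, SE 0.42) and B3gat2 (-0.62, SE 0.32) were not called between ID and I. The CTCFL line had 2 ID libraries.

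The effect of Dox with IAA differed from its effect without IAA in 163 genes as higher and 294 as lower. The most positive differences were those of Mfsd4b3 (3.49), Pcdhga11 (3.30), Nkd2 (3.25), Prss41 (3.08) and Hsd11b2 (2.72). The most negative were those of Dlx1 (-3.84), Dpf3 (-3.81), Vav3 (-3.15), AC124171.1 (-3.14) and Rapgef4 (-2.99). The same term compares IAA with and without Dox, so either reading holds for each value.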

How the results depend on the processing

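Most of these results are counts or percentages of genes, which have no direction to reverse. The medians of the genes raised or lowered in the CTCFL line kept their sign in every setting. The values held in 355 comparisons with an alternative and moved in 36. A count could shift and still be labelled as held: genes that stayed raised went from 426 to 297 with 4 lines in 1 fit. Values held with edgeR (319 higher, 526 lower between ID and I) and DESeq2 (313 and 589) on recovered reads. With an adjusted p under 0.01 alone, ID versus I gave 1683 higher and 2585 lower; 557 lowered and 504 raised genes moved back, 1083 and 1410 stayed changed, 789 fell further, and the interaction called 571 and 721. At an adjusted p under 0.05 with the fold, 174 raised genes moved back and the interaction called 264 and 468. Raised genes that moved back numbered 66 at a minimum mean of 50 and 67 with 4 lines in 1 fit, and 283 stayed raised at the minimum mean of 50. The median of the genes lowered in the CTCFL line was -0.54 with a pseudocount of 5, -0.34 with the list of the LCL line and -0.35 with that of the CLC line. Causes were not tested. Leaving out 1 library at a time gave 247 to 313 higher and 452 to 538 lower, 112 to 138 lowered and 82 to 116 raised genes that moved back, 449 to 625 and 328 to 487 that stayed changed, 119 to 159 that fell further, and 123 to 191 and 195 to 320 in the interaction, the 195 without replicate 1 of U. With the replicate block, ID versus I gave 275 and 516. Same-numbered I and ID libraries correlated at 0.265, 0.0541 and 0.0786. The same number was the best match for replicate 1 of I and not for replicates 2 and 3. With so few libraries, these values do not settle whether the numbers pair samples.

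Promoter shares moved with the site set. All genes tested had 16.8% within 1 kb, 29.2% at a −log10 q of at least 5, 36.9% with peaks of replicate 1, 38.9% with CTCF D sites and 32.2% among protein-coding genes. For replicate 1 and D sites respectively, the shares were 71.4 and 76.2% in lowered genes that moved back, 42.4 and 44.9% in those that stayed, 39.5 and 41.4% in those that fell further, and 36.3 and 38.7% in genes that stayed raised. Within 1 kb they were 23.2% (stayed lowered), 11.2% (fell further), 15.1% (raised, moved back) and 16.0% (stayed raised).

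Of 62 called genes described by name, 20 lost the call in at least 1 setting and none reversed. With 2 U libraries, 1 clone, unequal depth and no culture records, small differences lay beyond these data.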
